A study of Mus musculus with 10 samples.

Results

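The 10 genes described here encode enzymes and 1 accessory protein that make prostaglandins, thromboxane and leukotrienes from arachidonic acid. They were chosen by name, with earlier results of these data known, and all 10 were found among the 43432 genes of the count table: the phospholipases *Pla2g4a* and *Pla2g4c*, the cyclooxygenases *Ptgs1* and *Ptgs2*, the prostanoid synthases *Ptges*, *Hpgds* and *Tbxas1*, and *Alox5*, *Alox5ap* and *Lta4h* of the 5-lipoxygenase branch. The cells were RAW264.7, a macrophage line of the mouse derived from a virus-induced tumor, so that the 2 libraries of each condition, named as biological replicates in the labels, are cultures of 1 line. The 5 conditions were 0.5% DMSO alone, 0.5% DMSO with lipopolysaccharide (LPS) at 1 µg/mL, and compound **1**, an unsaturated keto fatty acid from a marine cyanobacterial mat, at 3.2, 10 or 32 µM with the same LPS. Solvent or **1** was given 1 h before LPS, and RNA was taken after 12 h. No condition held **1** without LPS, so its effect on resting cells was not analysed here.

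Arachidonic acid is held in membrane phospholipids until a phospholipase A2 releases it. Cyclooxygenases turn it into prostaglandin H2, from which separate synthases make prostaglandin E2, prostaglandin D2 or thromboxane A2, while 5-lipoxygenase and its activating protein turn it into leukotriene A4, the precursor of leukotrienes B4 and C4. In macrophages exposed to LPS, *Ptgs2* and *Ptges* are known as inducible genes and *Ptgs1* as the cyclooxygenase of resting cells.

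Library totals ranged from 45966803 to 58976377 counts. CPM here means counts scaled to a common library total, after adjustment by the trimmed mean of M-values (TMM), and FPKM is this value per 1000 bases of exon, used only to compare levels between genes. All 7 macrophage markers had counts in all 10 libraries, at a summed level of 9942 and 10809 CPM in DMSO, 7121 and 7139 in DMSO + LPS, and 5560 and 5940 at 32 µM. *Adgre1* and *Itgam* were called higher and *Lyz2* and *Csf1r* lower with LPS, and *Lyz2* and *Itgam* lower at 32 µM. The neutrophil marker *S100a8* was called higher with LPS (log2 fold change 2.98) and lower at 32 µM (−1.74). The other neutrophil marker, *Ly6g*, had 0 to 3 counts in the DMSO, DMSO + LPS and 32 µM libraries and 39 counts in replicate 1 at 10 µM. The part of these markers in the results on the enzymes was not tested, and in bulk RNA fewer expressing cells and less RNA per cell cannot be told apart. Replicate 1 at 10 µM and replicate 1 at 3.2 µM stood apart, with 1490 and 231 summed counts of the epithelial markers *Epcam* and *Krt8* against 0 to 4 in the other 8 libraries. Replicate 2 at 32 µM held 2.46% of its counts on the single feature *Gm42418* against 0.0419% to 0.207% elsewhere. Calls of the members that changed without the first pair of libraries, an alternative chosen after seeing the data, or without any 1 library are given with those values.

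The stretches just upstream of the transcription start are shown for 4 genes: both cyclooxygenases, which moved in opposite directions with LPS, and *Ptges* and *Alox5*, whose changes with LPS were the largest among the synthases and in the 5-lipoxygenase branch. Each is the 250 bases before the start, 5′ to 3′ on the strand of the gene, from RefSeq on GRCm38.p6. Capitals mark matches, on either strand, to any of 9 short motifs.
*Ptgs1* (chr2:36230176-36230425, plus strand): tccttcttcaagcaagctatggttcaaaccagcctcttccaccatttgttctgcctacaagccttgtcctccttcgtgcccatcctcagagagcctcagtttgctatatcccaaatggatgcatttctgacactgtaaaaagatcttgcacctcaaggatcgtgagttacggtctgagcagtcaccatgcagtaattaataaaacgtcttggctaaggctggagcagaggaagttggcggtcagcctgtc
*Ptgs2* (chr1:150099781-150100030, plus strand): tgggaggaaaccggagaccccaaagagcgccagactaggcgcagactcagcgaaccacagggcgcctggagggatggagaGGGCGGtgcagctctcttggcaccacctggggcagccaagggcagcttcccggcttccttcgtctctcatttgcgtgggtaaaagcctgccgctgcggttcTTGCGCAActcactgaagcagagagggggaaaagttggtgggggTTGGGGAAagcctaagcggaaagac
*Ptges* (chr2:30903298-30903547, minus strand): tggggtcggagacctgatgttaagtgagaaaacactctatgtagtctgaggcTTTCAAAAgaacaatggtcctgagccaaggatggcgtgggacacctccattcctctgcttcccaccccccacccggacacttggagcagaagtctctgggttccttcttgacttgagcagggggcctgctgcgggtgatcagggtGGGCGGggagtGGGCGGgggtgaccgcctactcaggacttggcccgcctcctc
*Alox5* (chr6:116461179-116461428, minus strand): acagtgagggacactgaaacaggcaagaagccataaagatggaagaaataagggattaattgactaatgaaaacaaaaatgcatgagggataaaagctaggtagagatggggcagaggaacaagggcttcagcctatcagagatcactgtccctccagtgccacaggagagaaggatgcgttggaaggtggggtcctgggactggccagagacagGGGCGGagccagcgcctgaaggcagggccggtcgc

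The motifs searched were the kappa-B site, found in 7.25% of 32851 promoter windows of the same length, TGACGTCA (1.55%), CACGTG (6.02%), TTNCNNAA (36.8%), TGANTCA (6.75%), TGACNNNGC (10.2%), GAAANNGAA (7.13%), TATAAA (12.4%) and GGGCGG (32.7%). *Ptgs2* had TTNCNNAA with its first base at −69 and −25 relative to the start and GGGCGG at −170. *Ptges* had TTNCNNAA at −198 and GGGCGG at −53 and −42, *Alox5* had GGGCGG at −35, and *Ptgs1* held none of the 9. No kappa-B match lay in the windows of the 9 members found in the RefSeq table. A match here is a match of letters, and bases outside these windows were not searched.

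Whether LPS changed the enzymes was asked first, by comparing DMSO + LPS with DMSO. LPS moved the 2 cyclooxygenase transcripts in opposite directions, raised *Ptges* and *Tbxas1*, and lowered all 3 genes of the 5-lipoxygenase branch. A call required a change of 1.5-fold or more and a Benjamini-Hochberg adjusted p below 0.05 over the 14172 genes tested with edgeR's quasi-likelihood test, and all 10 members were tested. By this rule 3 members were called higher and 4 lower, where 14.6% of all genes tested were called higher and 13.6% lower. The smallest p that an exact permutation test of 2 against 2 libraries can give is 0.333, and the model's p therefore draws on a spread shared across conditions and genes.

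**Figure D1:**
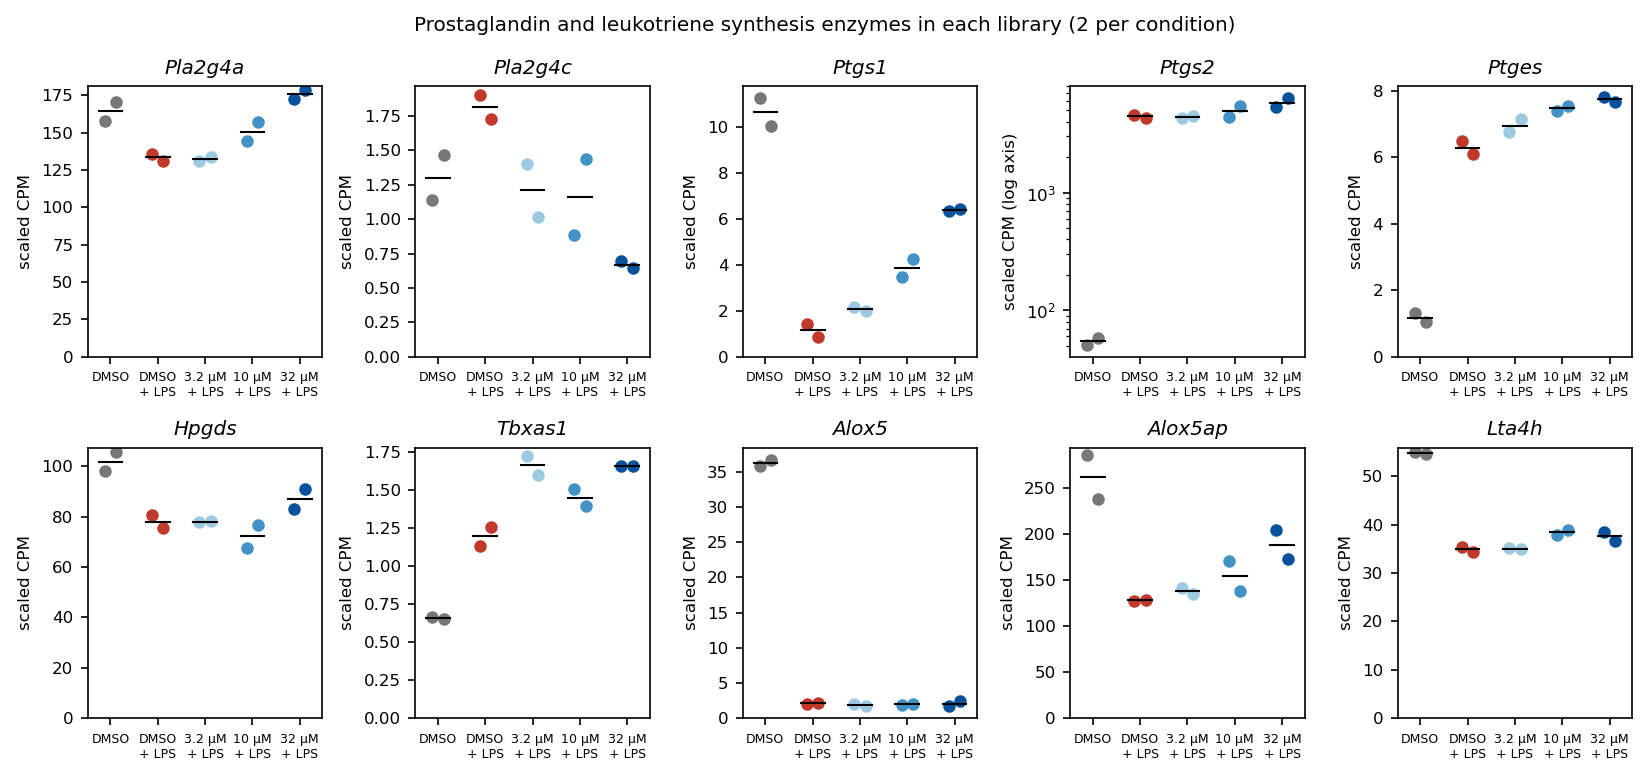
Level of each of the 10 genes in every library (scaled CPM, a log axis for *Ptgs2* only), with points for the 2 libraries of a condition and a line at their mean. *Ptgs1* was at 10.0 and 11.2 CPM in DMSO, at 0.873 and 1.41 CPM in DMSO + LPS and at 6.34 and 6.41 CPM at 32 µM, while *Alox5* stayed between 1.72 and 2.41 CPM in all 8 libraries with LPS.

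*Ptgs2* encodes the inducible cyclooxygenase (COX-2; chromosome 1, 150100031 to 150108227, GRCm38). Its level was 51.3 and 57.7 CPM in DMSO and 4578 and 4315 CPM in DMSO + LPS. Both LPS libraries lay far above both DMSO libraries, and the log2 fold change was 6.35 ± 0.14 (SE, n = 2 against 2; adjusted p = 1.89e-08 by edgeR), an 81.6-fold rise. This 1 gene took between 0.416% and 0.606% of all counts in the 8 libraries with LPS, against 0.00574% and 0.00647% without it. *Ptgs1*, the constitutive cyclooxygenase (COX-1; chromosome 2, 36230426 to 36252272), fell from 661 and 570 counts in DMSO to 81 and 41 counts with LPS. In CPM this was 11.2 and 10.0 against 1.41 and 0.873, with no overlap, with a log2 fold change of −3.20 ± 0.21 (SE; adjusted p = 6.58e-06 by edgeR), 9.21-fold lower.

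The opposite moves changed the balance of the 2 transcripts per length. *Ptgs2* was 3.87 and 4.87 times the level of *Ptgs1* in the DMSO libraries, on the FPKM scale. With LPS and solvent it was 2744 and 4191 times that level. Under LPS, 3.2 µM of **1** gave ratios of 1696 and 1918, 10 µM gave 1086 and 1098, and 32 µM gave 713 and 836. The ratio was thus highest in DMSO + LPS and lower at each dose, without overlap between neighboring doses.

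Of the synthases, *Ptges* makes prostaglandin E2 from prostaglandin H2 and is the inducible, membrane-bound form (chromosome 2, 30889471 to 30929863). It stood at 1.31 and 1.04 CPM in DMSO and at 6.50 and 6.09 CPM with LPS, a log2 fold change of 2.42 ± 0.12 (SE; adjusted p = 1.26e-06 by edgeR). *Tbxas1*, thromboxane A synthase (chromosome 6, 38875404 to 39084585), was low throughout, with 39 and 37 counts in DMSO and 65 and 59 with LPS. The 2 pairs did not overlap, and its log2 fold change was 0.86 ± 0.17 (SE; adjusted p = 0.00372 by edgeR). This call was lost with a 2-fold cutoff. *Hpgds*, which makes prostaglandin D2 (chromosome 6, 65117293 to 65144908), was at 97.9 and 106 CPM in DMSO and at 80.5 and 75.6 CPM with LPS. Its log2 fold change of −0.38 ± 0.08 (SE; adjusted p = 0.00365 by edgeR) was below the 1.5-fold limit, and among the settings run it was called lower only when libraries were scaled by their totals alone, at −0.59.

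In the 5-lipoxygenase branch 3 of 3 genes were called lower, beside 13.6% of all genes tested. *Alox5*, the 5-lipoxygenase itself (chromosome 6, 116410077 to 116461178), had 2107 and 2081 counts in DMSO and 119 and 104 in DMSO + LPS. These are 35.8 and 36.7 against 2.08 and 2.21 CPM, and the log2 fold change of −4.08 ± 0.16 (SE; adjusted p = 3.24e-07 by edgeR) was the largest fall among the 10 genes. *Alox5ap*, the protein that presents arachidonic acid to 5-lipoxygenase (chromosome 5, 149264767 to 149288153), went from 287 and 238 CPM to 128 and 128 CPM, a log2 fold change of −1.03 ± 0.13 (SE; adjusted p = 2.31e-04 by edgeR). *Lta4h*, the hydrolase that makes leukotriene B4 (chromosome 10, 93453411 to 93484875), went from 54.9 and 54.5 CPM to 35.4 and 34.4 CPM, with a log2 fold change of −0.65 ± 0.05 (SE; adjusted p = 1.22e-05 by edgeR). The fall was 16.9-fold for *Alox5*, 2.05-fold for *Alox5ap* and 1.57-fold for *Lta4h*, whose call was lost with a 2-fold cutoff.

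Neither phospholipase was called with LPS. *Pla2g4a*, the cytosolic phospholipase A2 that prefers arachidonic acid (chromosome 1, 149829618 to 149961290), was at 158 and 171 CPM in DMSO and at 136 and 131 CPM with LPS. The log2 fold change was −0.30 ± 0.06 (SE; adjusted p = 0.00335 by edgeR), below the 1.5-fold limit. *Pla2g4c*, a calcium-independent relative (chromosome 7, 13324655 to 13360672), had 67 and 83 counts in DMSO and 109 and 81 with LPS, with a log2 fold change of 0.48 ± 0.28 (SE; adjusted p = 0.194 by edgeR). It was called higher with LPS at 0.73 and 0.67, when either version of a short-transcript score (the median, in each library, of the log2 CPM of genes with transcripts under 1000 bases, ribosomal protein genes left out, relative to the mean over libraries) entered the fit. Over the 10 members the median log2 fold change with LPS was −0.34, beside 0.0026 over all genes tested. Scaling by library totals alone lowered the LPS contrast by 0.207 on the log2 scale at the median gene. Every call of a member with LPS kept its direction under it.

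Whether **1** altered the enzymes under LPS was asked next, by comparing each dose with DMSO + LPS. At 32 µM *Ptgs1* rose and *Pla2g4c* fell, and at 10 µM *Ptgs1* rose. In all, 1 member was called higher and 1 lower at 32 µM, where 1.27% of all genes were called higher and 2.91% lower. At 10 µM 1 member was called higher and 0 lower, beside 0.282% and 0.579% of all genes. At 3.2 µM the quasi-likelihood test of edgeR called 0 members and 0% of all genes, although 120 genes changed 1.5-fold at an unadjusted p below 0.05, and other settings called 1 gene (DESeq2), 3 (edgeR's likelihood ratio test), 6 (the planned short-transcript score) and 66 (edgeR on the 4 libraries compared), none of them a member. These comparisons share the DMSO + LPS libraries with each other and with the LPS comparison.

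**Figure D2:**
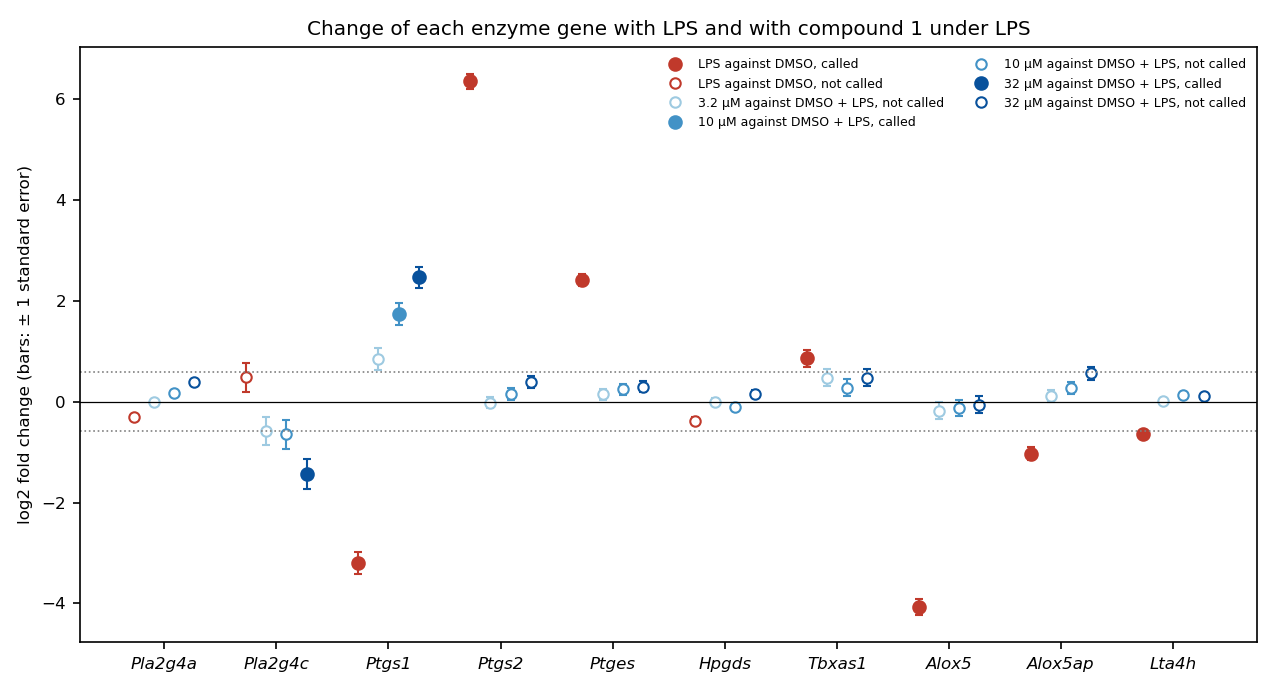
Log2 fold change of each gene with LPS (against DMSO) and with **1** at 3.2, 10 and 32 µM under LPS (against DMSO + LPS), with bars of 1 standard error, filled points for called genes and dotted lines at the 1.5-fold limit. For *Ptgs1* the value is −3.20 with LPS and 0.84, 1.73 and 2.46 at the rising doses, while *Ptgs2* lies at 6.35 with LPS and between −0.02 and 0.39 at the doses.

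*Ptgs1* had 81 and 41 counts in DMSO + LPS. The 3.2 µM libraries held 100 and 99 counts, those at 10 µM held 161 and 191, and the 32 µM pair held 310 and 290. On the CPM scale these are 1.41 and 0.873, then 2.16 and 1.98, 3.46 and 4.23, and 6.34 and 6.41. The 5 conditions did not overlap, DMSO included, and the level rose with each step in dose. The log2 fold change was 2.46 ± 0.21 at 32 µM (SE; adjusted p = 2.16e-04 by edgeR), 1.73 ± 0.21 at 10 µM (SE; adjusted p = 0.00587) and 0.84 ± 0.22 at 3.2 µM (SE; adjusted p = 0.848), the last not called. In linear terms the rise at 32 µM was 5.52-fold, with a 95% interval from 3.92 to 7.76. The 10 µM call was lost in a fit of the 4 libraries compared alone (log2 fold change 1.74, adjusted p = 0.130 by edgeR) and without replicate 1 at 3.2 and at 10 µM (log2 fold change 1.87, adjusted p = 0.0561 by edgeR).

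Between neighboring doses the rise of *Ptgs1* was not called. The log2 difference was 0.73 ± 0.20 from 10 to 32 µM (SE; adjusted p = 0.133 by edgeR) and 0.89 ± 0.20 from 3.2 to 10 µM (SE; adjusted p = 0.129 by edgeR). DESeq2 called both steps, with adjusted p of 0.0373 and 0.0149. No member passed in these 2 comparisons with edgeR's quasi-likelihood test, which called 1.32% and 0.254% of all genes, while 548 and 226 genes changed 1.5-fold at an unadjusted p below 0.05.

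Of the platelet markers *Pf4* and *Ppbp*, 2 of 2 had counts in 9 libraries and *Pf4* alone in the other. Their summed level, carried by *Pf4*, was 2.26 to 2.87 CPM in DMSO, 3.86 to 4.51 in DMSO + LPS, 5.33 to 5.59 at 3.2 µM, 6.35 to 7.52 at 10 µM and 9.22 to 11.4 at 32 µM. *Ppbp* was at 0.279 and 0.256 CPM in DMSO + LPS and at 0.266 and 0.288 CPM at 32 µM, which overlap. *Pf4* was called higher at 32 µM, with a log2 fold change of 1.36 ± 0.17 (SE; adjusted p = 0.00190 by edgeR). Both markers were called higher with LPS, *Ppbp* from 0 and 3 counts in DMSO to 16 and 12 in DMSO + LPS. The part of these markers in the *Ptgs1* values was not tested.

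*Pla2g4c* had 109 and 81 counts in DMSO + LPS. Counts were 65 and 51 with 3.2 µM of **1**, 41 and 65 with 10 µM, and 34 and 29 with 32 µM. The 32 µM libraries were the lowest of the 10, while the 3.2 and 10 µM libraries overlapped. The log2 fold change at 32 µM was −1.44 ± 0.29 (SE; adjusted p = 0.0194 by edgeR), 2.71-fold lower. The call was lost without replicate 1 or 2 of DMSO + LPS (adjusted p = 0.121 and 0.0814 by edgeR) and without replicate 1 or 2 at 32 µM (0.0884 and 0.118), while the log2 fold change stayed between −1.51 and −1.36. The other phospholipase, *Pla2g4a*, went from 136 and 131 CPM to 172 and 179 CPM at 32 µM. Its log2 fold change of 0.40 ± 0.06 (SE; adjusted p = 0.00428 by edgeR) stayed below the 1.5-fold limit, as did that of *Alox5ap*, 0.56 ± 0.13 (SE; adjusted p = 0.0285 by edgeR), from 128 and 128 CPM to 205 and 173 CPM. *Alox5ap* was called higher without replicate 2 at 32 µM, at 0.68 (adjusted p = 0.0362 by edgeR), and with either short-transcript score, at 0.60 and 0.61.

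The genes that LPS raised were not called at any dose. *Ptgs2* was at 4578 and 4315 CPM in DMSO + LPS. The 3.2 µM libraries stood at 4316 and 4471 CPM, the 10 µM libraries at 4431 and 5473 CPM, and the 32 µM libraries at 5329 and 6327 CPM. Both 32 µM libraries lay above both DMSO + LPS libraries, but the log2 difference of 0.39 ± 0.11 (SE; adjusted p = 0.0790 by edgeR) did not pass, with a 95% interval from 0.12 to 0.66. The interval lies above 0, so that no lowering of *Ptgs2* mRNA by **1** at 32 µM was measured. *Ptges* stood at 6.50 and 6.09 CPM in DMSO + LPS and at 7.81 and 7.68 CPM at 32 µM, a log2 difference of 0.30 ± 0.11 (SE; adjusted p = 0.154 by edgeR). *Tbxas1* had 81 and 75 counts at 32 µM, and its log2 difference was 0.47 ± 0.17 (SE; adjusted p = 0.140 by edgeR).

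No change of *Alox5* was detected at any dose. Its libraries held 119 and 104 counts in DMSO + LPS. With **1** the counts were 96 and 86 (3.2 µM), 87 and 93 (10 µM), and 84 and 109 (32 µM). The log2 difference at 32 µM was −0.06 ± 0.16 (SE; adjusted p = 0.914 by edgeR), with a 95% interval from −0.44 to 0.32, which stays inside the 1.5-fold limit in both directions. *Lta4h* was at 38.5 and 36.7 CPM and *Hpgds* at 82.9 and 91.0 CPM at 32 µM, with log2 differences of 0.11 ± 0.05 (SE; adjusted p = 0.245 by edgeR) and 0.16 ± 0.08 (SE; adjusted p = 0.292). Over the 10 members the median log2 fold change was 0.34 at 32 µM, 0.17 at 10 µM and 0.0027 at 3.2 µM, beside 0.0082, 0.016 and 0.0040 over all genes tested.

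The lower doses gave values between or near these for the members not called. At 10 µM *Pla2g4a* was at 144 and 157 CPM, *Alox5ap* at 171 and 139 CPM and *Ptges* at 7.39 and 7.54 CPM, with log2 differences from DMSO + LPS of 0.18 ± 0.06, 0.27 ± 0.13 and 0.25 ± 0.11 (SE). The same genes at 3.2 µM had log2 differences of −0.01 ± 0.06, 0.11 ± 0.13 and 0.14 ± 0.11 (SE). *Tbxas1* showed no order by dose, at 80 and 80 counts with 3.2 µM, 70 and 63 with 10 µM, and 81 and 75 with 32 µM. *Hpgds* was lowest at 10 µM, at 67.6 and 76.7 CPM, overlapping the DMSO + LPS pair, and *Lta4h* kept within 35.0 to 39.0 CPM at all 3 doses. None of these differences at 3.2 or 10 µM was called.

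How far the 32 µM cells stood from resting cells was asked by comparing 32 µM + LPS with DMSO. In this comparison 3 members were called higher and 3 lower, beside 13.9% and 13.3% of all genes. *Ptgs2*, *Ptges* and *Tbxas1* were higher, with log2 differences of 6.74, 2.72 and 1.33. *Alox5* was lower by −4.14, *Pla2g4c* by −0.96 and *Ptgs1* by −0.74 on the log2 scale, so *Ptgs1* at 6.34 and 6.41 CPM was still under its DMSO level of 11.2 and 10.0 CPM (adjusted p = 0.0123 by edgeR). The *Ptgs1* call was lost without DMSO replicate 1 (adjusted p = 0.0686 by edgeR) and without replicate 1 at 32 µM (0.0548), and that of *Pla2g4c* without DMSO replicate 2 (0.123) or either replicate at 32 µM (0.0820 and 0.108), and with DESeq2 (log2 difference −0.95, adjusted p = 0.0501). With a 2-fold cutoff the calls of both *Ptgs1* and *Pla2g4c* were lost as well. *Pla2g4a*, at a log2 difference of 0.09 ± 0.06 (SE; adjusted p = 0.227 by edgeR), was not called. *Lta4h*, at −0.54 ± 0.05 (SE; adjusted p = 3.81e-05 by edgeR), and *Alox5ap*, at −0.47 ± 0.13 (SE; adjusted p = 0.0140 by edgeR), were under the 1.5-fold limit, with both 32 µM libraries below both DMSO libraries. *Lta4h* was called lower with library size alone (−0.74). *Alox5ap* was called lower with library size alone (−0.68), with the planned short-transcript score (−0.62), without DMSO replicate 2 (−0.63; adjusted p = 0.00865 by edgeR) and without replicate 1 at 32 µM (−0.60; adjusted p = 0.0143).

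**Figure D3:**
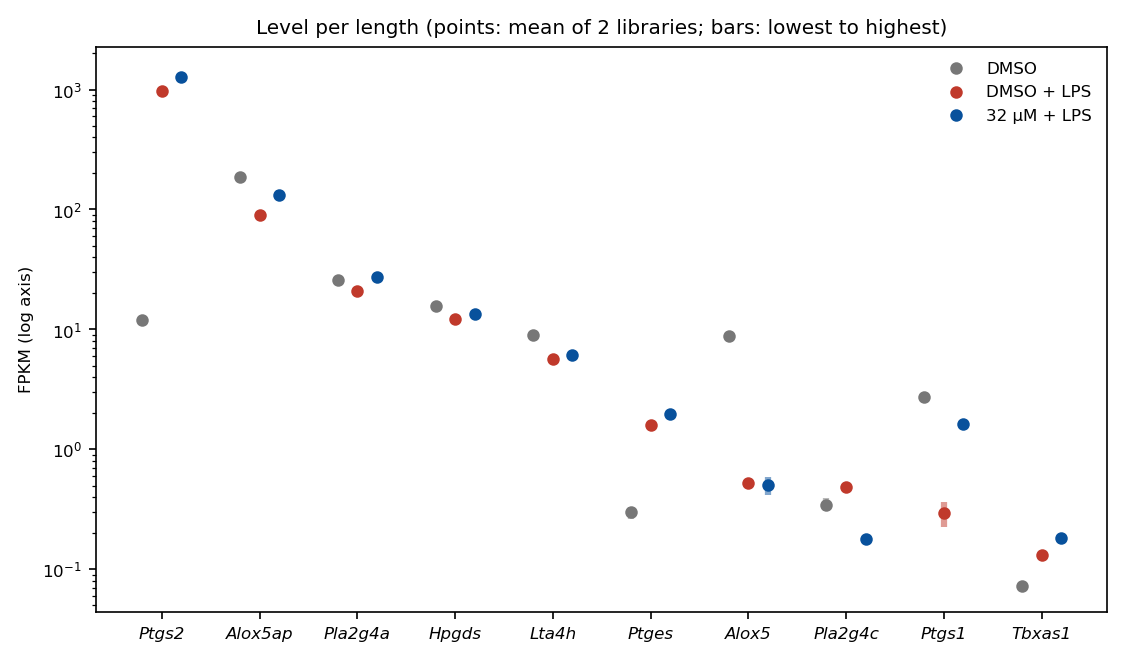
Level per length of the 10 genes (FPKM, log axis) in DMSO, DMSO + LPS and 32 µM + LPS, with points at the mean of 2 libraries and bars from the lower to the higher one, ordered by the level in DMSO + LPS. *Ptgs2* moves from 11.9 to 971 FPKM with LPS, and *Ptgs1* from 2.74 to 0.295 and then to 1.64 FPKM at 32 µM.

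Compared per length, *Alox5ap* was the most abundant of the 10 transcripts in DMSO, at 185 FPKM, followed by *Pla2g4a* at 25.7, *Hpgds* at 15.8, *Ptgs2* at 11.9, *Lta4h* at 8.97, *Alox5* at 8.83 and *Ptgs1* at 2.74 FPKM. *Pla2g4c*, *Ptges* and *Tbxas1* were under 1 FPKM, at 0.347, 0.299 and 0.0723, and of all neighbors in this order only *Pla2g4c* and *Ptges* overlapped between libraries. In DMSO + LPS the order began with *Ptgs2* at 971 FPKM, above *Alox5ap* at 90.2 and *Pla2g4a* at 20.9. It ended with *Alox5* at 0.523, *Pla2g4c* at 0.484, *Ptgs1* at 0.295 and *Tbxas1* at 0.131 FPKM, of which *Alox5* and *Pla2g4c* overlapped. At 32 µM *Ptgs1*, at 1.64 FPKM, ranked above *Alox5*, at 0.503 FPKM, without overlap. Exonic lengths were those of all GENCODE M21 transcripts of a gene together, so that a gene expressed as 1 short isoform is understated.

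Genes whose level followed each called member most closely were found by Pearson's r of log2 CPM over the 10 libraries, which share 5 conditions, among 9562 genes with a mean of at least 5 CPM. For *Ptgs1* these were *Ugt1a7c* (r = 0.985), *Gpnmb* (0.980) and *Klhl21* (0.974). For *Ptgs2* they were *Slc7a11*, *Plk2* and *Eaf1*, each at r = 1.00 after rounding, and for *Ptges* they included *Met* (0.998) and *Dnmt3l* (0.997). *Alox5* was followed most closely by *Cenpn* (0.998), *Kif15* (0.997) and *Arhgap45* (0.997), and *Pla2g4c*, at low counts, by *Pola2* (0.927), *Nacc1* (0.924) and *Nudt13* (0.905). *Tbxas1* was followed by *Tars* (0.984), *Tfpt* (0.981) and *Ptpn2* (0.979), *Alox5ap* by *Tmc6* (0.988), *Sfxn3* (0.988) and *Irf2bp2* (0.984), and *Lta4h* by *Cerk* (0.995), *Ctdsp2* (0.994) and *Xrcc1* (0.993). These are descriptions of which profiles had the same shape, with most of the spread set by LPS for *Ptgs2*, *Ptges* and *Alox5*.

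The other genes of the pathway were read from 7 lists. Of 14 tested genes among other phospholipases and arachidonate remodeling enzymes, 6 were called higher and 2 lower with LPS, beside 14.6% and 13.6% of all genes tested. *Pla2g5*, a secreted phospholipase A2, went from 10.3 and 10.6 CPM to 45.2 and 45.8 CPM (log2 fold change 2.12 ± 0.05, SE; adjusted p = 2.00e-08 by edgeR). *Pla2g6*, a calcium-independent phospholipase, rose by 1.11 and *Acsl1*, a fatty acid-activating enzyme, by 0.63 on the log2 scale, while *Lpcat2*, which rebuilds phospholipids, fell by 0.72. At 32 µM 1 of the 14 was called higher and 1 lower, beside 1.27% and 2.91% of all genes. *Pla2g5* went down to 28.6 and 28.5 CPM (−0.67 ± 0.05, SE; adjusted p = 7.76e-05 by edgeR), and *Pla2g7*, which hydrolyzes platelet-activating factor, went from 39 and 22 counts to 117 and 115 (2.09 ± 0.26, SE; adjusted p = 0.00180 by edgeR). *Pla2g7* was also the 1 gene of this list called at 10 µM, at 1.60, where 0.282% of all genes were called higher.

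Among all genes tested, 14.6% were called higher and 13.6% lower with LPS, and 1.27% higher and 2.91% lower at 32 µM. Of 5 tested other prostanoid synthases, 1 was called lower with LPS, *Prxl2b* (−0.77), and 1 higher at 32 µM. This was *Akr1b3*, an aldose reductase that can make prostaglandin F2α, at 533 and 540 CPM in DMSO + LPS and 1012 and 1001 CPM at 32 µM (0.91 ± 0.04, SE; adjusted p = 9.11e-06 by edgeR). Of 4 tested genes of prostanoid breakdown and transport, *Ptgr2*, a prostaglandin reductase, was called lower with LPS (−0.75). *Abcc4*, an exporter that carries prostaglandins, was called higher at 32 µM, from 81.8 and 75.7 CPM to 151 and 162 CPM (0.99 ± 0.07, SE; adjusted p = 9.35e-05 by edgeR).

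In the leukotriene C4 branch 2 of 6 tested genes were called higher and 3 lower with LPS, beside 14.6% and 13.6% of all genes tested. *Abcc1*, an exporter of leukotriene C4, rose by 1.36 and *Dpep2*, a dipeptidase that acts on leukotriene D4, by 0.72 on the log2 scale, while *Mgst3* fell by 1.52 and *Mgst2*, which can form leukotriene C4, by 0.70. *Ltc4s*, the leukotriene C4 synthase, named for its role after its values were seen, had 87 and 165 counts in DMSO and 32 and 30 with LPS (−1.87 ± 0.55, SE; adjusted p = 0.0211 by edgeR). At 32 µM *Mgst2* went from 13.0 and 15.3 CPM to 28.8 and 27.1 CPM (0.98 ± 0.12, SE; adjusted p = 0.00136 by edgeR), and *Dpep2* went down, from 22.4 and 20.6 CPM to 13.1 and 12.5 CPM (−0.75 ± 0.07, SE; adjusted p = 5.03e-04 by edgeR). *Mgst2* was also called higher at 10 µM, at 0.75. The shares of all genes were 1.27% higher and 2.91% lower at 32 µM, and 0.282% higher at 10 µM.

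**Figure D4:**
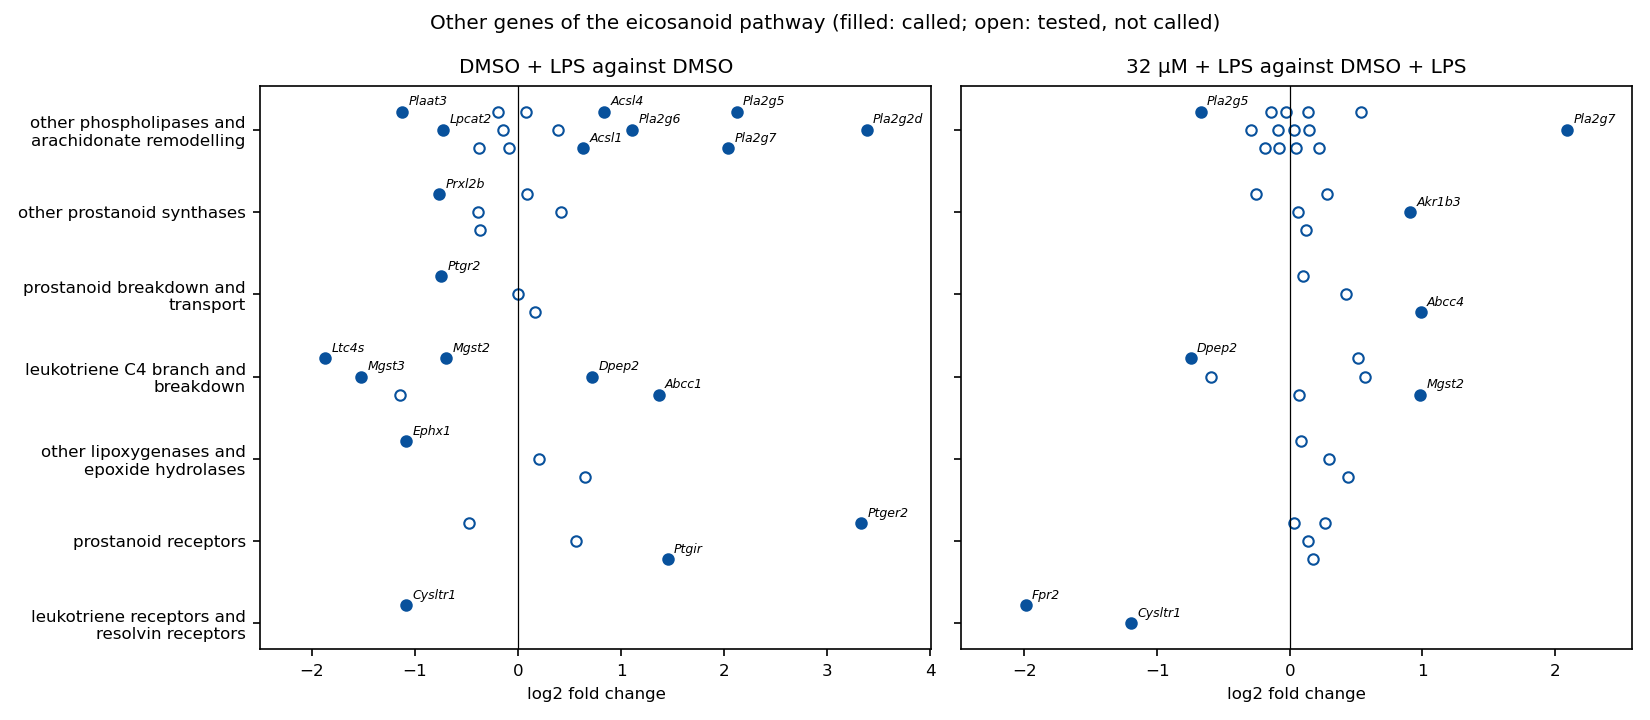
Log2 fold change of the other pathway genes in 7 lists, with LPS (left) and at 32 µM of **1** under LPS (right), filled points for called genes, and without *Fpr2* on the left and *Hpgd*, which had 0 counts in a whole condition. *Ptger2* lies at 3.33 and *Pla2g5* at 2.12 with LPS, and *Pla2g7* at 2.09, *Mgst2* at 0.98 and *Cysltr1* at −1.20 at 32 µM.

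Receptors were read in the same way. Beside the counts that follow, 14.6% of all genes tested were called higher and 13.6% lower with LPS. At 32 µM these shares were 1.27% and 2.91%. Of 4 tested prostanoid receptors 2 were called higher with LPS and 0 at 32 µM. *Ptger2*, a prostaglandin E2 receptor, went from 20 and 15 counts to 173 and 146 (3.33 ± 0.24, SE; adjusted p = 9.87e-06 by edgeR), and *Ptgir*, the prostacyclin receptor, from 5.78 and 6.04 CPM to 17.3 and 15.1 CPM (1.45 ± 0.08, SE). Of 2 tested genes among leukotriene and resolvin receptors, 1 was called higher and 1 lower with LPS and both lower at 32 µM. *Cysltr1*, a receptor of cysteinyl leukotrienes, had 451 and 488 counts in DMSO, 203 and 194 with LPS, and 78 and 79 at 32 µM (−1.20 ± 0.18 against DMSO + LPS, SE; adjusted p = 0.00479 by edgeR). *Fpr2*, a formyl peptide and lipoxin receptor, had 0 counts in both DMSO libraries and 66 and 42 with LPS, at least 19.4-fold higher against a floor of 3 counts per library, and 10 and 14 counts at 32 µM (−1.99 ± 0.35, SE; adjusted p = 0.0139 by edgeR). Of 3 tested other lipoxygenases and epoxide hydrolases, *Ephx1* was called lower with LPS (−1.09) and 0 were called at 32 µM.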

How the data were processed

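RAW264.7 RNA was sequenced by the authors from poly(A)-selected, directional libraries, 2 × 150 cycles on 1 lane. The deposited values are raw read counts per mouse Ensembl gene, without normalization. The submitters' processing notes name Trimmomatic, FastQC, STAR, DESeq2 and mm10, while the counting tool, its strand setting and the annotation are not given in the sources used here. In GENCODE M21, *Ptgs1*, *Tbxas1* and *Alox5ap* share 148, 144 and 189 exonic bases with opposite-strand genes, whose reads an unstranded count could not tell apart. Groups follow the treatment labels. Genes passing filterByExpr (minimum count 10) were TMM-scaled and fitted with 1 mean per condition in edgeR 4.0.16 (R 4.3.3), quasi-likelihood F tests, with Benjamini-Hochberg adjustment, and checked on simulated data. The SE given with edgeR values is the absolute log2 fold change divided by the square root of the F statistic. The 95% intervals use this SE with degrees of freedom shared across conditions and genes. DESeq2 1.42.0 was an alternative. With 45966803 or more counts per library, counting error is small above a few CPM.

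The members, lists and motifs were chosen with earlier results of these data known. In other lists, the genes named are those called with LPS or at a dose, at most the 4 of smallest adjusted p per list and comparison, and 3 genes most like each called member, of which 1 is not reported here. Of 10 members, 9 had a RefSeq promoter. Other scalings, filters, tests and cutoffs, the replicate number, a short-transcript score and omitted libraries were tried. P-values measure only the spread between these cultures.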

Additional observations from a re-analysis of the deposited data

How the results depend on the processing

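Of 1099 values of the members' log2 fold changes under other settings, 1034 kept direction and call, 20 gained a call, 16 lost one and 29 changed sign, none of the latter called. With LPS, 5 to 8 members were called. At 32 µM 0 were called with a mean of at least 5 CPM required, and 1 to 2 without one library. At 10 µM 0 were called with that filter, in the 4-library fit, and without replicate 1 at 3.2 and 10 µM. Against DMSO, 3 were called at 32 µM with that filter and 5 to 6 without one library. From 10 to 32 µM 1 was called with DESeq2, the likelihood ratio test and either short-transcript score (1425 genes, or the 378 with a mean of at least 5 CPM, a limit added after seeing the data), and from 3.2 to 10 µM 1 with those and with no count filter. The filter leaves out low genes, *Ptgs1* included. Other causes were not tested. At 3.2 µM the log2 fold change of *Lta4h* (0.0062) became −0.0016 with library size alone and −0.0079 with no count filter, *Hpgds* 0.043 and 0.048, *Ptgs2* 0.058 and 0.068 and *Pla2g4a* 0.019 and 0.024 with the 2 scores, and that of *Pla2g4a* at 32 µM against DMSO became −0.11 with library size alone. With a library or that pair left out, log2 fold changes spanned zero for *Alox5* at 32 µM (−0.32 to 0.17), *Ptgs2* at 10 µM (−0.029 to 0.30), and at 3.2 µM for *Lta4h* (−0.015 to 0.029), *Hpgds* (−0.045 to 0.045), *Ptgs2* (−0.059 to 0.026) and *Pla2g4a* (−0.035 to 0.014). They did so from 10 to 32 µM for *Lta4h* (−0.063 to 0.0050) and *Alox5* (−0.19 to 0.30), and from 3.2 to 10 µM for *Alox5* (−0.077 to 0.26) and *Pla2g4c* (−0.47 to 0.50). Same-numbered replicates deviated together in all 6 pairs among DMSO and the 3 doses (correlations from 0.30 to 0.83) and oppositely in all 4 pairs with DMSO + LPS (−0.42 to −0.17). The numbers were not taken as pairs because the labels tie them to no shared day or batch. Whether a batch lay behind the shared deviations was not tested. With the replicate block 7, 2, 1, 0, 6, 0 and 0 members were called, as without it. Over all genes, counts moved by over 1.5 times from 3995 to 2641 with LPS and from 3847 to 2547 at 32 µM against DMSO with the 5 CPM filter. With a 2-fold cutoff they were 2426 and 2245, 317 in place of 592 at 32 µM, 36 in place of 122 at 10 µM, 63 in place of 187 from 10 to 32 µM and 8 in place of 36 from 3.2 to 10 µM. Without replicate 1 or 2 of DMSO + LPS or replicate 2 at 10 µM, the 10 µM count was 52, 59 or 227, and without replicate 1 at 3.2 and 10 µM it was 45. Without that pair 122 genes were called from 10 to 32 µM and 4 from 3.2 to 10 µM, and without either replicate at 3.2 µM or at 10 µM the last count was 6, 5, 22 or 66. Across the settings run, all-gene counts ranged from 36 to 232 at 10 µM, 0 to 66 at 3.2 µM (66 in the 4-library fit), 5 to 295 from 10 to 32 µM and 0 to 109 from 3.2 to 10 µM. Counts were 29 to 109 for *Tbxas1* and *Pla2g4c*. They were also low for *Ptgs1* in DMSO + LPS (81 and 41) and for *Alox5* with LPS (84 to 119). The part of depth in the spread of these genes was not tested.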

Other observations

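*Hpgd*, which inactivates prostaglandins, and *Pla2g10*, a secreted phospholipase, had counts that moved with the 2 libraries carrying epithelial markers. *Hpgd* had 23 and 20 counts in DMSO, 0 and 0 in DMSO + LPS, and 0 and 0 at 32 µM. It had 11 counts in replicate 1 at 3.2 µM and 44 in replicate 1 at 10 µM, against 0 in replicate 2 of both doses. Its difference between DMSO + LPS and DMSO was not called over all libraries (adjusted p = 0.121 by edgeR). Without replicate 1 at 3.2 and at 10 µM it was lower with LPS (adjusted p = 0.00731 by edgeR), an alternative chosen after seeing the data. *Pla2g10* had 26 counts in replicate 1 at 10 µM, 5 in replicate 1 at 3.2 µM and 0 to 2 in the other 8 libraries. The fibroblast markers *Col1a1* and *Col1a2* had 129 summed counts in replicate 1 at 10 µM and 0 to 12 in the others. The source of these counts was not tested.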
